A study of Homo sapiens with 12 samples.

Results

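The genes of the circadian clock followed here were PER1, PER2, PER3, CRY1, CRY2, CIART, NR1D1, NR1D2, CLOCK and BMAL1, 10 of the 22379 genes in the table. They were chosen by name for their place in the clock and were divided into a repressor arm of 8 genes and an activator arm of 2 genes, CLOCK and BMAL1. Of the 10, 9 averaged 10 or more in the untreated libraries and were tested, and CIART did not reach that level. After 8 h of triptolide, the 9 tested genes fell in each of 3 genotypes on the spike-in scale. So did 98.9%, 92.3% and 96.6% of all tested genes in control, NUP93-knockout and EXOSC5-knockout cells. CLOCK in control cells changed sign when libraries were scaled to their typical gene. On average, and without a test, the repressor arm lost more mRNA than the activator arm. Only 4, 5 and 4 of its 7 tested genes fell more than both activators, in the same order of cells. At the extremes, the mean of NR1D1 after drug was 1.58% of its untreated mean in control cells, and that of CLOCK was 36.2%.

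The molecular clock is a transcriptional feedback loop with a period of about a day. CLOCK and BMAL1 bind E-boxes as a heterodimer and switch on the Period (PER) and Cryptochrome (CRY) genes, whose proteins return to the nucleus and block CLOCK and BMAL1. In an interlocking loop, the nuclear receptors NR1D1 and NR1D2 (REV-ERBα and REV-ERBβ) repress BMAL1 through ROR elements, and CIART adds a further brake on CLOCK and BMAL1. U2OS cells are a widely used cellular model of the human clock, but the protocols used here describe no step that aligned the clocks of different cells.

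Poly(A)-selected RNA came from the human osteosarcoma line U2OS, transfected with a pX330 plasmid encoding Cas9 and a guide RNA against NUP93 (NUP93-KO), a guide against EXOSC5 (EXOSC5-KO) or a nontargeting guide (NONT). NUP93 is a scaffold protein of the nuclear pore, and EXOSC5 is a core subunit of the RNA exosome, which degrades RNA from its 3′ end. Each genotype received 1 µM triptolide, which inhibits the XPB helicase of TFIIH and thereby transcription initiation, or DMSO (called untreated here) for 8 h, with 2 replicates in each of 6 groups. The knockouts were pools of transiently transfected cells that had survived puromycin, not clones, and the study's methods give a shorter selection and recovery for the NUP93 and EXOSC5 guides than for its other guides, so genotype and time since transfection cannot be told apart.

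ERCC spike-in RNA had been added in proportion to the number of cells counted, and all values are per gene on that scale, so an error in the count or the spike moves all genes of a library together. Approximate depth was 8.60 to 11.96 megareads per library. The untreated NONT replicates were the least even pair: the median gene was lower in the first than in the second by 0.51 on the log2 scale. In untreated cells, NUP93 was 1753 and 2489 in NONT against 1395 and 1432 in NUP93-KO, and EXOSC5 was 299 and 481 in NONT against 216 and 148 in EXOSC5-KO. These decreases did not pass the threshold (limma adjusted p = 0.926 and 0.151), and an edit of the coding sequence need not lower an mRNA. Of 8 markers of osteoblasts and mesenchyme, 6 reached 10 in both replicates of every untreated group, among them VIM, COL1A1, SPARC and RUNX2, whereas SP7 was listed at 0 in all libraries and BGLAP stayed at or below 5.68. Of 8 markers of other cell types, only EPCAM and CDH1 reached that level, and the summed value of the 8 was 56.9 to 128 in untreated and 37.4 to 90.8 in treated libraries. The part of cell makeup in the results below was not tested.

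RefSeq promoter windows on GRCh38.p14 were searched on both strands for letter matches to 5 motifs linked to the clock. The motifs were the E-box CACGTG, the E′-box CACGTT, the D-box TTATGTAA, the core of the ROR element TAGGTCA and the CRE TGACGTCA. A window ran from 250 bases before to 50 bases after a start site, and the 10 genes had 15 windows. The following stretches are printed 5′ to 3′ on the strand of the gene, with the motif in capitals, because they hold the E-boxes of PER1 and NR1D2, the D-boxes of the PER3 and NR1D2 genes, and the ROR cores of BMAL1 and CRY2.
PER1 E-box: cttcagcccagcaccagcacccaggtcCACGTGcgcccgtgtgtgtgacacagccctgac
NR1D2 distal E-box: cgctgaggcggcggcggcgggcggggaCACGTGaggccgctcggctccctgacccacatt
NR1D2 proximal E-box: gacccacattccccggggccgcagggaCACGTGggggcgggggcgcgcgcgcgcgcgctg
NR1D2 D-box: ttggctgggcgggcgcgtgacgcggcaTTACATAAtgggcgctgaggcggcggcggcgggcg
PER3 D-box: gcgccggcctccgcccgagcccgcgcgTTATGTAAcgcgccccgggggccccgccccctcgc
CRY2 ROR core: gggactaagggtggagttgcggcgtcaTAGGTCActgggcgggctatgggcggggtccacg
BMAL1 ROR core: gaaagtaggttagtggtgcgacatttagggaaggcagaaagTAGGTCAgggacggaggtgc
The PER1 stretch is chr17:8152545-8152604 on the minus strand, with its motif at −173 from the start site. On the plus strand, the NR1D2 stretches are chr3:23945939-23945998, chr3:23945989-23946048 and chr3:23945900-23945961, with motifs at −155, −105 and −194, the last read in the reverse orientation. The PER3 stretch is chr1:7784087-7784148 (motif at −177), the CRY2 stretch chr11:45847383-45847443 (−65) and the BMAL1 stretch chr11:13277779-13277839 (31 bases into the transcript), all on the plus strand.

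An E-box was present in 3 of the 15 windows (PER1, NR1D2 and CIART) and in 7.26% of the 35116 windows of all genes. An E′-box was found in 5 of the 15 windows (PER2, CRY1, CRY2, NR1D1 and CLOCK), against 5.34% of all windows. The D-box was in 2 of the 15 (PER3 and NR1D2) and in 0.886% of all windows. The ROR core was in 2 of the 15 (BMAL1 and CRY2) and in 1.85% of all windows. The CRE was in no window of these genes and in 1.85% of all windows. No motif found in these genes overlapped another, and a match describes only the letters in the window, not binding.

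The first question was how abundant each gene was without drug. Levels between genes are compared per kilobase of the canonical GENCODE transcript, on the linear spike-in scale. In untreated NONT cells, NR1D2 (ENSG00000174738, chr3:23945286-23980617, plus strand) was the most abundant, at a mean of 291 per kb, followed by CRY1 (ENSG00000008405, chr12:106991364-107093549, minus strand) at 166. CLOCK (ENSG00000134852, chr4:55427903-55546909, minus strand) and NR1D1 (ENSG00000126368, chr17:40092793-40100589, minus strand) came next, at 95.1 each, and their replicates overlapped. PER3 (ENSG00000049246, chr1:7784291-7845177, plus strand) at 59.0, PER1 (ENSG00000179094, chr17:8140472-8156506, minus strand) at 56.3 and BMAL1 (ENSG00000133794, chr11:13276652-13387266, plus strand) at 50.6 followed, each overlapping its neighbor in the order. CRY2 (ENSG00000121671, chr11:45847118-45883248, plus strand) stood at 35.7 and PER2 (ENSG00000132326, chr2:238244044-238290102, minus strand) at 6.38, clear of their neighbors. CIART (ENSG00000159208, chr1:150282543-150287093, plus strand) was listed at 0 in both untreated NONT libraries. NR1D2 was also first in the untreated knockouts, at 269 and 260.1 per kb, and PER2 and CIART were also last. The plot of levels by library shows the repressors spread from the top to the bottom of this range.

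**Figure D1:**
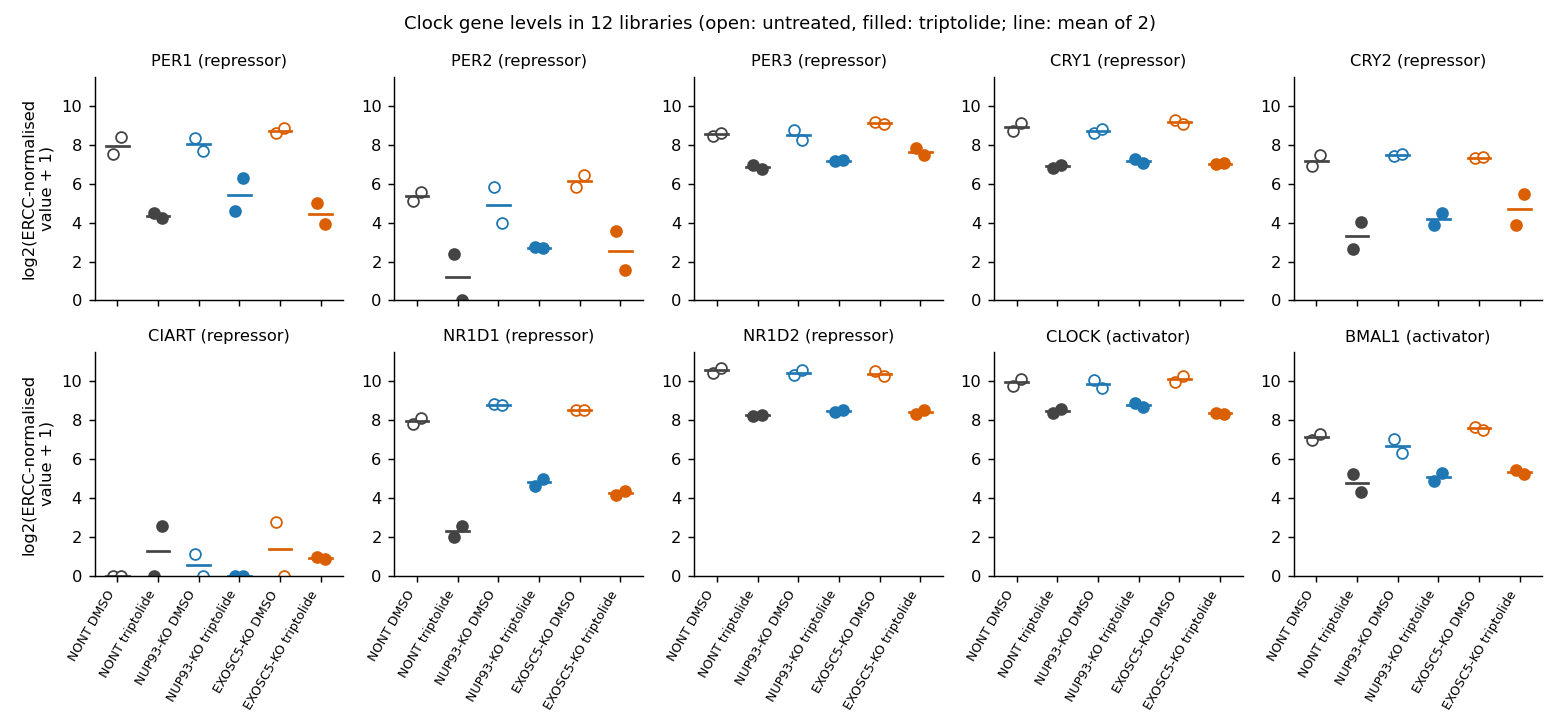
Level of each clock gene in each library, as log2(ERCC-normalized value + 1), by genotype and treatment (DMSO or triptolide for 8 h); circles are libraries and lines are means of 2 replicates. In each genotype the filled circles of the 9 tested genes lie below the open ones, whereas CIART stays near 0.

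The second question was how much of each mRNA remained once initiation was blocked. Values are ERCC-normalized, replicate 1 before replicate 2, and fold changes are those of log2(value + 1), which understates the change of low values. In bulk RNA, fewer cells of a type and less RNA per cell cannot be told apart. The Period genes, whose proteins form the core of the repressive complex, are given first. PER1 is the Period gene best known for a fast response to external signals. In NONT, PER1 stood at 183 and 344 untreated and 21.5 and 18.0 after triptolide. In NUP93-KO, PER1 read 334 and 206 untreated and 23.0 and 77.3 after the drug. In EXOSC5-KO, PER1 was 391 and 463 untreated and 31.1 and 14.3 treated. Treated and untreated libraries did not overlap in any genotype, and the treated NUP93-KO replicates were the widest apart. PER1 had log2 fold changes of −3.60 (NONT), −2.60 (NUP93-KO) and −4.26 (EXOSC5-KO; SE 0.50 each; limma adjusted p at most 2.97e-04).

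PER2 is the Period protein that binds both CRY and nuclear receptors. In NONT, PER2 stood at 34.0 and 47.4 untreated and 4.22 and 0 after triptolide. In NUP93-KO, PER2 read 57.1 and 15.02 untreated and 5.66 and 5.43 after the drug. In EXOSC5-KO, PER2 was 56.4 and 87.0 untreated and 10.8 and 1.96 treated. These groups did not overlap either, but PER2 was the least abundant tested member and rested on about 27 to 60 reads per untreated library, except the second NUP93-KO replicate with about 12, and on about 0 to 12 reads per treated library. PER2 had log2 fold changes of −4.17 (NONT), −2.22 (NUP93-KO) and −3.59 (EXOSC5-KO; SE 0.84 each; limma adjusted p at most 0.0330). The PER2 call in NUP93-KO was the weakest of the set (limma adjusted p = 0.0330). It ended under 10 of 21 alternatives, including the loss of either untreated NONT or either treated NUP93-KO library, and without the first untreated NUP93-KO replicate the fold change was −1.29 (limma adjusted p = 0.291).

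PER3 is the Period family member that the core loop needs least. In NONT, PER3 stood at 352 and 399 untreated and 123 and 107 after triptolide. In NUP93-KO, PER3 read 435 and 302 untreated and 144 and 149 after the drug. In EXOSC5-KO, PER3 was 585 and 549.8 untreated and 228 and 177 treated. The loss was the same in direction as for its paralogs and without overlap, but more of the mRNA was left. PER3 had log2 fold changes of −1.70 (NONT), −1.30 (NUP93-KO) and −1.49 (EXOSC5-KO; SE 0.25 each; limma adjusted p at most 2.72e-04). As a share of the untreated mean, the PER3 mean after drug was 30.6%, 39.8% and 35.7% (NONT, then NUP93-KO, then EXOSC5-KO), against 7.51%, 18.6% and 5.32% for PER1 and 5.19%, 15.4% and 8.92% for PER2.

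The Cryptochromes, the strongest inhibitors of CLOCK and BMAL1, also differed from each other in NONT and NUP93-KO. In EXOSC5-KO the ratio of CRY2 to CRY1 overlapped between treated and untreated libraries. CRY1 is the long-acting repressor of the pair. In NONT, CRY1 stood at 425 and 566 untreated and 113 and 124 after triptolide. In NUP93-KO, CRY1 read 397 and 459.9 untreated and 153 and 133 after the drug. In EXOSC5-KO, CRY1 was 625 and 545 untreated and 129 and 133 treated. All treated libraries lay below all untreated ones, in a narrow band. CRY1 had log2 fold changes of −2.04 (NONT), −1.58 (NUP93-KO) and −2.14 (EXOSC5-KO; SE 0.24 each; limma adjusted p at most 2.53e-05). CRY2 is the other Cryptochrome, and like CRY1 it binds PER proteins. In NONT, CRY2 stood at 119 and 176 untreated and 5.18 and 15.2 after triptolide. In NUP93-KO, CRY2 read 170.4 and 182 untreated and 14.1 and 21.5 after the drug. In EXOSC5-KO, CRY2 was 159.7 and 165 untreated and 14.0 and 44.2 treated. Again the groups were apart, and the treated replicates of NONT and EXOSC5-KO differed from each other more than those of CRY1 did. CRY2 had log2 fold changes of −3.86 (NONT), −3.27 (NUP93-KO) and −2.65 (EXOSC5-KO; SE 0.53 each; limma adjusted p at most 3.49e-04). The shares left were 23.9%, 33.3% and 22.5% for CRY1 and 6.92%, 10.1% and 17.9% for CRY2, in the order NONT, NUP93-KO and EXOSC5-KO.

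The REV-ERB receptors, which repress BMAL1, held both the most abundant clock mRNA and the one with the largest decrease in NONT. NR1D1 encodes REV-ERBα, a heme-binding receptor. In NONT, NR1D1 stood at 226 and 274 untreated and 3.01 and 4.89 after triptolide. In NUP93-KO, NR1D1 read 453 and 439 untreated and 23.6 and 30.9 after the drug. In EXOSC5-KO, NR1D1 was 372 and 364 untreated and 16.9 and 19.8 treated. The treated NONT libraries were the lowest, at about 5 and 10 reads, and the knockouts were higher both untreated and treated. NR1D1 had log2 fold changes of −5.68 (NONT), −4.00 (NUP93-KO) and −4.26 (EXOSC5-KO; SE 0.34 each; limma adjusted p at most 7.25e-08). NR1D2 encodes REV-ERBβ, the closest paralog of NR1D1. In NONT, NR1D2 stood at 1398 and 1651 untreated and 294 and 313 after triptolide. In NUP93-KO, NR1D2 read 1278 and 1531 untreated and 343 and 372 after the drug. In EXOSC5-KO, NR1D2 was 1487 and 1234 untreated and 319 and 363 treated. Every treated library was below every untreated one, and the treated values of the 3 genotypes lay close together. NR1D2 had log2 fold changes of −2.32 (NONT), −1.97 (NUP93-KO) and −1.99 (EXOSC5-KO; SE 0.20 each; limma adjusted p at most 3.47e-07). NR1D1 kept 1.58%, 6.11% and 4.98% of its untreated mean (genotypes in the same order), and NR1D2 kept 19.9%, 25.4% and 25.1%. NR1D1 overlaps THRA on the opposite strand, and the libraries and the pseudoalignment were strand-specific.

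CIART, whose protein binds BMAL1 and represses the heterodimer, gave no usable signal. It was above 0 in 5 of 12 libraries, with a highest value of 5.82 in an untreated EXOSC5-KO library, and about 10 reads at most. No fold change is given for it.

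The activators lost less on average than the repressors, although the fold change of BMAL1 lay below those of PER3 and CRY1 in each genotype. For CRY1 the gap was less than the SE of BMAL1. BMAL1 also lay below NR1D2 in NONT and EXOSC5-KO, again by less than that SE, but not in NUP93-KO. CLOCK is the histone acetyltransferase and DNA-binding partner of BMAL1. In NONT, CLOCK stood at 859 and 1133 untreated and 334 and 387 after triptolide. In NUP93-KO, CLOCK read 1081 and 801 untreated and 470.3 and 412 after the drug. In EXOSC5-KO, CLOCK was 1017 and 1246 untreated and 334 and 323 treated. The treated libraries did not overlap the untreated ones, and the share left was the largest of the set in NONT and NUP93-KO. CLOCK had log2 fold changes of −1.45 (NONT), −1.08 (NUP93-KO) and −1.77 (EXOSC5-KO; SE 0.22 each; limma adjusted p at most 4.84e-04). BMAL1 is the only single gene without which the core oscillator stops. In NONT, BMAL1 stood at 126 and 156 untreated and 37.2 and 19.0 after triptolide. In NUP93-KO, BMAL1 read 129.6 and 78.7 untreated and 27.9 and 38.3 after the drug. In EXOSC5-KO, BMAL1 was 204 and 181 untreated and 41.8 and 37.2 treated. Here too the treated libraries were apart from the untreated ones. BMAL1 had log2 fold changes of −2.36 (NONT), −1.60 (NUP93-KO) and −2.26 (EXOSC5-KO; SE 0.39 each; limma adjusted p at most 0.00233). CLOCK kept 36.2%, 46.9% and 29.1% and BMAL1 19.9%, 31.8% and 20.5%, in the same order of genotypes.

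Counted together, 9 of 9 tested clock genes were called lower in every genotype on the spike-in scale. Of all 13811 genes tested, 90% were called lower in NONT, 55.1% with NUP93-KO and 64.3% with EXOSC5-KO, so the calls in NONT were close to the background. Non-overlap of treated and untreated libraries was likewise found for 9 of 9 and for 94.8%, 79.1% and 88% of all genes. Set against the median gene, which changed by −1.62, −0.92 and −1.08, the median of the 9 clock genes was −2.36, −1.97 and −2.26. Below the median gene lay 8, 9 and 9 of the 9 clock genes, the exception being CLOCK in NONT, which was 0.17 above it. By over 1 below the median gene lay 4, 5 and 6 of them, against 25.9%, 25.2% and 24% of all genes. PER1, PER2, CRY2 and NR1D1 passed that mark in each genotype.

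The spike-in scale set the size of these losses. Rescaling each library by the median of ratios to the tested genes, which holds the typical gene constant, moved the median gene to −0.01, −0.03 and −0.01. On that scale 5 of 9 clock genes were called lower in NONT, 5 with NUP93-KO and 7 with EXOSC5-KO, and none higher, while of all genes 30.3%, 29.7% and 28.7% were called lower and 27.2%, 26.7% and 26.2% higher. PER1, CRY2, NR1D1 and NR1D2 stayed called in each genotype. CLOCK in NONT changed sign on that scale, to 0.20 (limma adjusted p = 0.469).

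**Figure D2:**
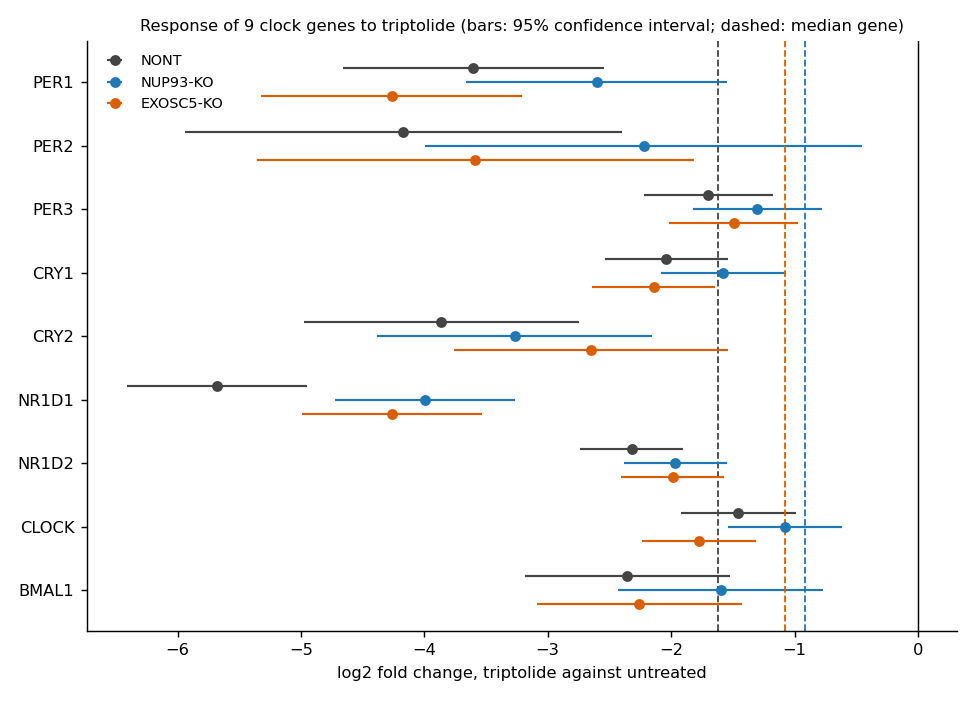
Log2 fold change of the 9 tested clock genes after triptolide, with 95% confidence intervals from limma, in NONT, NUP93-KO and EXOSC5-KO; dashed lines mark the median of 13811 genes in the same color. The points of NR1D1 lie farthest to the left in NONT and NUP93-KO and the points of CLOCK and PER3 nearest to the median gene.

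The repressor arm was then set against the activator arm. The mean log2 fold change of the 7 tested repressors was −3.34, −2.42 and −2.91 with NONT, NUP93-KO and EXOSC5-KO, while that of CLOCK and BMAL1 was −1.90, −1.34 and −2.02. The difference of the arms was −1.43 on the log2 scale in NONT, and taking 1 treated and 1 untreated library at a time gave differences of −1.61 to −1.26. In NUP93-KO the difference was −1.08 (pairings −1.30 to −0.86) and in EXOSC5-KO −0.90 (−0.95 to −0.84). No p-value is attached to these means over chosen genes.

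The same contrast can be written for each library, where it does not depend on the scale of the library apart from the pseudocount. It restates the difference of the arms and is not a further observation. The mean log2 value of the repressors minus that of the activators was −0.51 and −0.42 in untreated NONT and −2.03 and −1.77 after triptolide. In NUP93-KO it was −0.24 and −0.03 untreated and −1.33 and −1.10 treated. In EXOSC5-KO it was −0.36 and −0.37 untreated and −1.21 and −1.31 treated. The 6 treated libraries thus all lay below the 6 untreated ones. The pooled SD between replicates was 0.12, which measures the spread of libraries and not that of genes within an arm.

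The arms were not uniform. Below both activators lay 4 of 7 repressors in NONT, 5 with NUP93-KO and 4 with EXOSC5-KO. The fold change of PER3 was smaller than that of BMAL1 in each genotype, and leaving PER3 out widened the difference of the arms to −1.71, −1.27 and −1.13. Leaving out NR1D1 narrowed it to −1.04 in NONT and −0.82 in NUP93-KO, and leaving out PER1 narrowed it to −0.67 in EXOSC5-KO. These were the smallest values from leaving out any 1 repressor. Leaving out CLOCK, so that BMAL1 alone stood for the activators, gave −0.98, −0.82 and −0.65, and leaving out BMAL1 gave −1.89, −1.34 and −1.14. With CIART included at its values near 0, the difference was −0.86, −0.85 and −0.59.

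Paralogs of the same family were then compared within each library. The log2 ratio of PER1 to PER3 within a library changed by −1.90, −1.30 and −2.77 after triptolide in NONT, NUP93-KO and EXOSC5-KO. For PER2 over PER3 the changes were −2.47, −0.92 and −2.09. For NR1D1 over NR1D2 they were −3.36, −2.03 and −2.27. In these 3 pairs the treated ratios lay below the untreated ones without overlap in each genotype. For CRY2 over CRY1 the changes were −1.82, −1.69 and −0.50, and in EXOSC5-KO the treated and untreated ratios overlapped. Single libraries moved several of these values by over 1.5 times, though none of NR1D1 over NR1D2. In NUP93-KO, PER1 over PER3 changed by −0.47 without the first treated replicate and by −2.13 without the second, and PER2 over PER3 by −0.25 without the first untreated replicate and by −1.59 without the second. Without the second treated replicate, PER2 over PER3 changed by −1.38 in NONT and by −1.27 in EXOSC5-KO. CRY2 over CRY1 changed by −1.19 in NONT without the first treated replicate, and in EXOSC5-KO by 0.27 without the first and −1.28 without the second treated replicate. These ratios are descriptions without a test, and in low genes such as PER2 they depend on the pseudocount.

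The activators also had paralogs outside the set. NPAS2, which can replace CLOCK, stood at 128 and 251 untreated and 139 and 130.4 treated in NONT, and the treated values lay inside the untreated range. The log2 ratio of CLOCK to NPAS2 changed by −1.05, −1.56 and −1.76 in the 3 genotypes, and the ratio of BMAL1 to BMAL2 by −1.68, −1.67 and −2.05, in each case without overlap. In EXOSC5-KO, CLOCK over NPAS2 changed by −2.74 without the first untreated replicate and by −0.79 without the second. BMAL2, the paralog of BMAL1, was named after its values were seen and stood at 716 and 897 untreated and 532 and 470.1 treated in NONT.

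**Figure D3:**
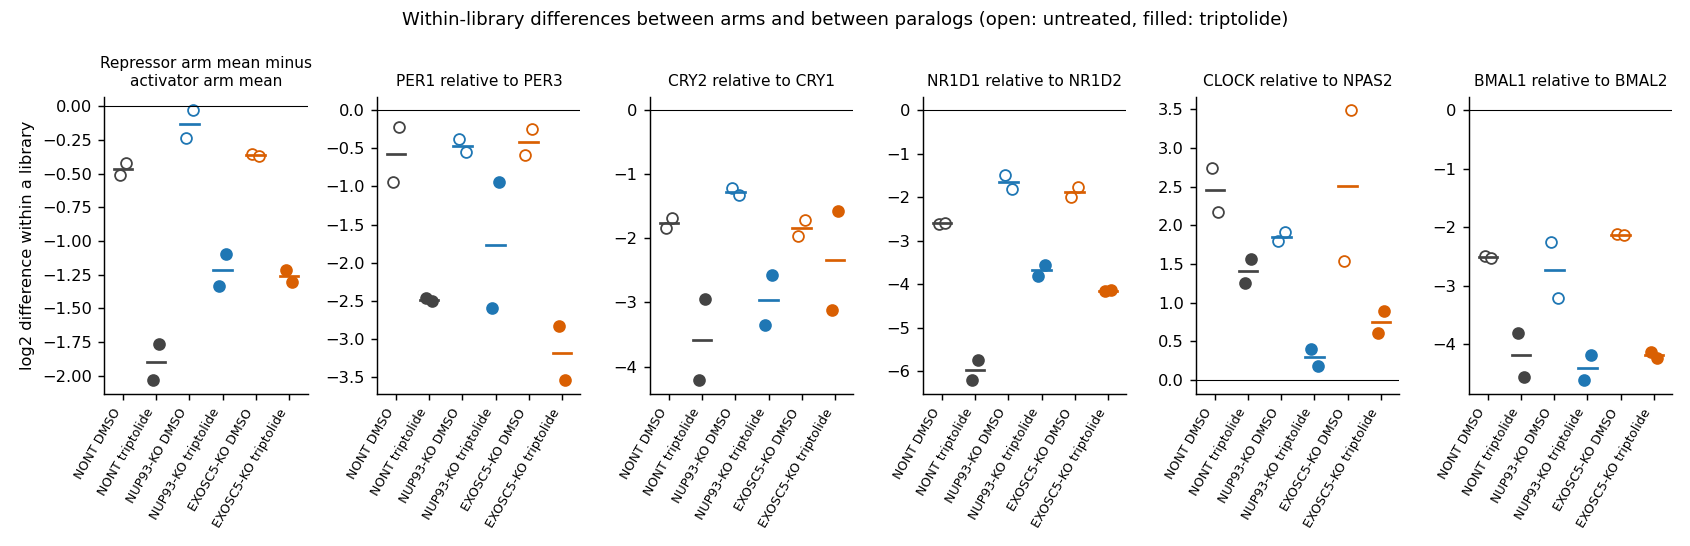
Log2 differences within each library between the mean of the 7 tested repressors and that of the 2 activators, and between paralogs, by group; circles are libraries and lines are means of 2. The arm difference was −0.51 to −0.03 in untreated and −2.03 to −1.10 in treated libraries, and NR1D1 fell relative to NR1D2 in each genotype.

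The third question was whether the knockouts changed the clock genes by themselves. In untreated cells 0 of 9 were called between NUP93-KO and NONT, where limma called 0.0217% of all genes in either direction, and 0 of 9 between EXOSC5-KO and NONT, where it called 0.521%. At an unadjusted p under 0.05, 1 of 9 passed in each, near the 4.1996% and 8.49% of all genes. In NUP93-KO it was NR1D1, at 453 and 439 against 226 and 274 in NONT. The log2 difference was 0.84 ± 0.34 (SE; limma adjusted p = 1.00). In EXOSC5-KO it was PER3, at 585 and 549.8 against 352 and 399, a difference of 0.60 ± 0.25 (SE; limma adjusted p = 0.496). The median over the 9 genes was −0.08 in NUP93-KO, where the median gene was −0.09. In EXOSC5-KO it was 0.45 against 0.07 for all genes, and 8 of 9 values were above 0, as were 59.5% of all genes. That count was 5 with the same mitochondrially encoded sum per library and 6 without the first untreated NONT replicate. The untreated replicates of EXOSC5-KO lay above those of NONT without overlap for 5 of 9 genes, as they did for 19.2% of all genes, and those of NUP93-KO for 1 of 9, as for 7.93%.

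The fourth question was whether loss of NUP93 or EXOSC5 changes the loss of mRNA under triptolide, and the difference in response was tested directly. The response passed the threshold for 0 of 9 clock genes between NUP93-KO and NONT, EXOSC5-KO and NONT, or the 2 knockouts, where limma called 0.775%, 0.333% and 0.0217% of all genes. At an unadjusted p under 0.05 the numbers were 1, 1 and 2 of 9, against 41.6%, 23.5% and 4.32% of all genes. On the spike-in scale the difference was above 0 for 9 of 9 genes in NUP93-KO, as for 92.04% of all genes, with a median of 0.59 that lay below the 0.74 of all genes, but for 4 of 9 under each of the 3 other scales. In EXOSC5-KO it was above 0 for 6 of 9 genes, against 89.8% of all genes, with a median of 0.21 against 0.57, and for 3 of 9 under each of the other scales. That count was 4 without the second treated NONT replicate. These contrasts share the NONT libraries.

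NR1D1 came nearest to the threshold. The log2 fold change in NUP93-KO minus that in NONT was 1.69 ± 0.49 (SE; 95% interval 0.66 to 2.72; limma adjusted p = 0.0612). For EXOSC5-KO the same difference was 1.42 ± 0.49 (SE; 95% interval 0.39 to 2.46; limma adjusted p = 0.173). Without the first untreated NONT replicate, which was low for most genes, these differences were 1.83 and 1.56 and passed (limma adjusted p = 0.0123 and 0.0319). With libraries rescaled by median of ratios they were 1.09 and 1.00 and did not (limma adjusted p = 0.470 and 0.510). For EXOSC5-KO minus NUP93-KO, PER1 had a difference of −1.66 ± 0.71 (SE), and CLOCK likewise with −0.69 ± 0.31, neither past the threshold at a limma adjusted p of 0.984. The PER1 difference was −2.51 without the first treated NUP93-KO replicate and −0.81 without the second. For NR1D2 the difference from NONT was 0.35 (95% interval −0.24 to 0.94) with NUP93-KO and 0.33 (−0.26 to 0.92) with EXOSC5-KO, so a difference of 1 or more was outside both intervals.

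**Figure D4:**
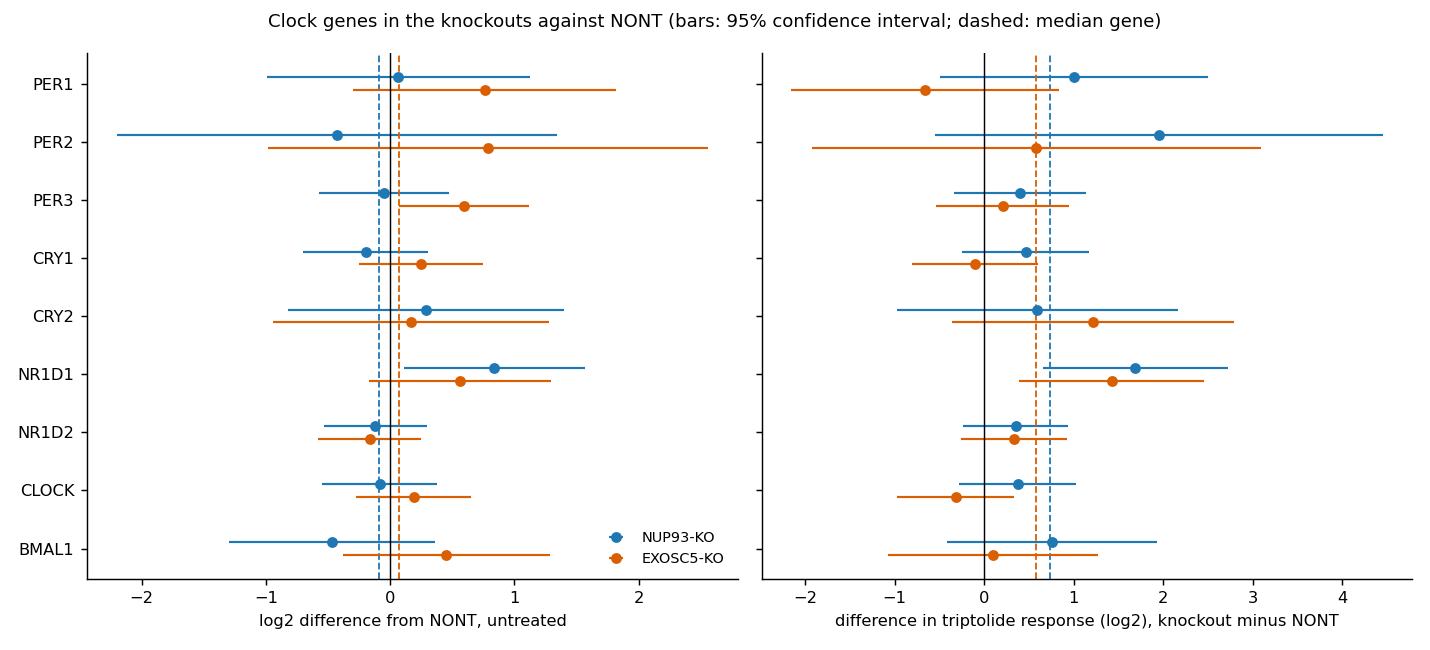
Left, log2 difference of each tested clock gene between untreated knockout and untreated NONT cells; right, difference in the log2 response to triptolide, knockout minus NONT; bars are 95% confidence intervals from limma and dashed lines the median of 13811 genes. Most intervals span 0. Those of NR1D1 lie above 0 in the right panel and, for NUP93-KO, in the left. The PER3 interval for EXOSC5-KO also lies above 0 in the left panel.

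Other genes of the clock were followed through a list of 31 transcription factors, modifiers and cofactors, of which 27 passed the filter on low values. Triptolide lowered 26 of the 27 in NONT, 19 with NUP93-KO and 20 with EXOSC5-KO on the spike-in scale and raised none, shares to be read against the 90%, 55.1% and 64.3% of all genes. Output and feedback factors fell most: 7 of 7 were called lower in each genotype, with medians of −4.58, −4.19 and −3.92, below every median of the other groups including the repressor arm. NFIL3, the repressor that competes for D-boxes, stood at 193 and 299 untreated and 0.602 and 1.47 treated in control cells. Its log2 fold change was −6.92 ± 0.47 (SE; limma adjusted p = 1.70e-09). In those treated libraries 1 read was worth about 0.603 and 0.490. The treated NFIL3 values thus rested on very few reads, and the size of the fold change depends on the pseudocount. BHLHE41, an E-box repressor, changed least in this group, with −1.83 ± 0.41 (SE; limma adjusted p = 5.82e-04), a call that was lost with libraries rescaled by median of ratios (−0.20).

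Modifiers of clock proteins were called lower for 8 of 8 genes in each genotype, where 90%, 55.1% and 64.3% of all genes were called lower. The medians of the modifiers were −2.33, −1.49 and −1.77. CSNK1E, a kinase that marks PER proteins for decay, had the highest value of this group in NONT at −1.81 ± 0.19 (SE; limma adjusted p = 2.96e-07), a call lost with rescaling by median of ratios (−0.16). Cofactors were called lower for 8 of 8 in NONT, 3 of 8 with NUP93-KO and 4 of 8 with EXOSC5-KO, against the same shares of all genes. Their medians of −1.23, −0.34 and −0.74 were above the median gene. SIRT1, a deacetylase that acts on PER2 and BMAL1, was the lowest in NONT at −4.58 ± 0.31 (SE; limma adjusted p = 1.68e-09). HDAC3, the deacetylase recruited by REV-ERB receptors, was the highest at −0.62 ± 0.21 (SE; limma adjusted p = 0.0109), a direction that flipped to 0.72 with the same total per library and to 1.03 with median of ratios and a value that was −0.35 without the second untreated NONT replicate (limma adjusted p = 0.0626) and −0.53 without the second treated one (0.0701).

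The remaining transcription factors were called lower for 3 of 4 in NONT and 1 of 4 in each knockout, against 90%, 55.1% and 64.3% of all genes. RORA, an activator of BMAL1 that competes with the REV-ERB receptors, changed by −2.005 ± 0.39 in NONT (SE; limma adjusted p = 1.64e-04). The RORA fold change was −0.83 with NUP93-KO and −0.72 with EXOSC5-KO, without passing the threshold (limma adjusted p = 0.0821 and 0.113), and it lost its call in NONT with rescaling by median of ratios (−0.41). NPAS2 had the highest value, −0.41 ± 0.42 (SE; limma adjusted p = 0.354), which became 1.24 with median of ratios. No gene of the list was called between untreated knockouts and NONT. For 1 gene each the response differed from NONT. CSNK1E in NUP93-KO stood at 1694 and 1691 untreated and 1143 and 1276 treated. In NONT it stood at 1599 and 2087 untreated and 590.3 and 461 treated. Its loss was smaller than in NONT by 1.32 ± 0.27 (SE; limma adjusted p = 0.0438). BHLHE40, an E-box repressor like BHLHE41, stood at 1912 and 1595 untreated and 67.4 and 95.4 treated in EXOSC5-KO. In NONT it stood at 1006 and 1480.0 untreated and 16.5 and 9.06 treated. Its loss in EXOSC5-KO was smaller by 2.10 ± 0.42 (SE; limma adjusted p = 0.0480). With median of ratios these differences were 0.57 and 1.58 and no longer passed (limma adjusted p = 0.213 and 0.116), nor did they with the replicate block (limma adjusted p = 0.0555 and 0.0617). The CSNK1E call was also lost without any 1 of 10 of the 12 libraries, the exceptions being the first untreated and the first treated NONT replicates. The BHLHE40 call was lost without any 1 of 7 libraries, with an adjusted p from limma of up to 0.305 without the second untreated NONT replicate.

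**Figure D5:**
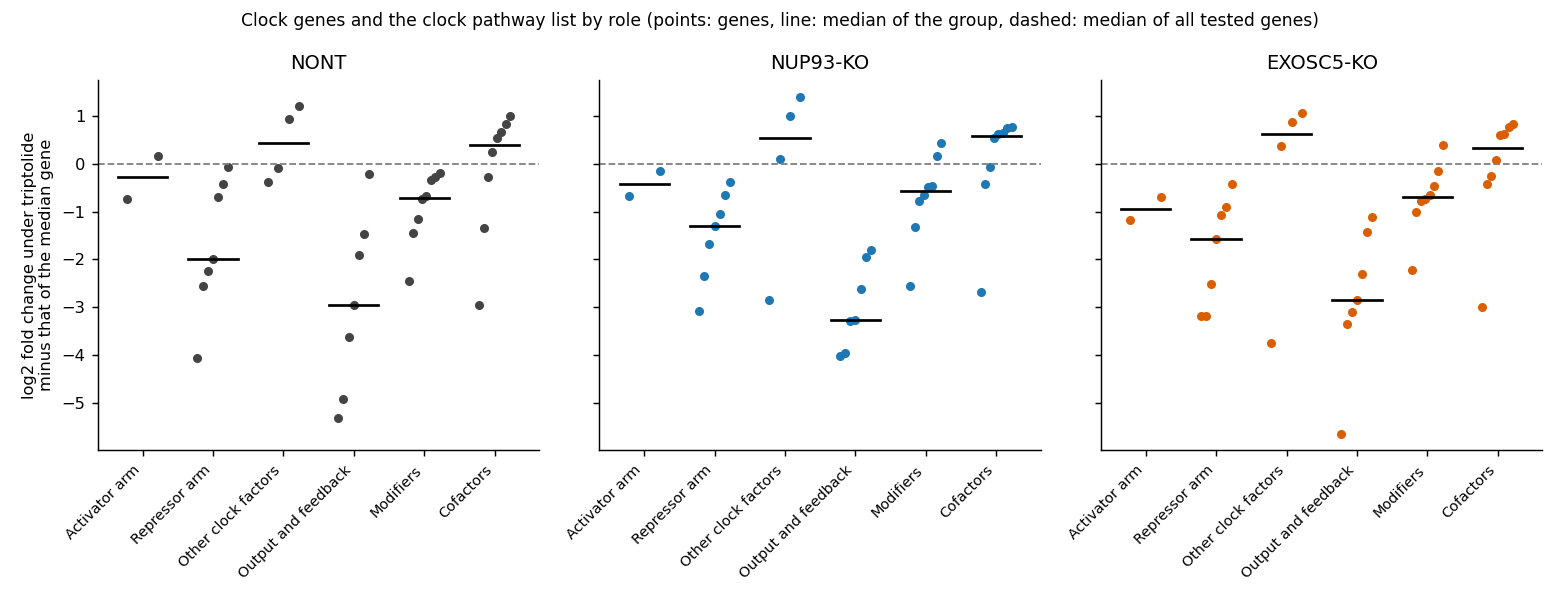
Log2 fold change after triptolide minus that of the median gene, for the 9 tested clock genes and the 27 tested genes of the clock list, grouped by role in each genotype; points are genes, lines are group medians and the dashed line is the median of 13811 genes. The medians of the output and feedback factors, the modifiers and both arms lie below the dashed line in each genotype. Those of the cofactors and the other clock factors lie above it.

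Last, the genes whose pattern over the 12 libraries was most like that of each clock gene were found by the root mean square distance between log2 values centered on each gene's own mean, with no test, since libraries share their treatment and scale. For NR1D2 these were DPYSL2, VPS72 and CEP76 (distances 0.11 to 0.13), for CRY1 KLHDC2, AP5M1 and PPM1A (distances 0.14 to 0.14), and for PER3 ZFAND2A, L3HYPDH and HOOK3 (distances 0.15 to 0.16). CLOCK was closest to PCGF6, TBC1D13 and WBP11 (distances 0.16 to 0.19), and BMAL1 to DENND2B, THAP5 and SUPT20H (distances 0.20 to 0.26). PER1, PER2, CRY2 and NR1D1, with larger losses, had more distant nearest neighbors, but they also lay farther from genes in general. Their median distance over all tested genes was 1.26 to 1.89, against 0.59 to 0.78 for the other tested clock genes. The nearest were ZNF77, ATP5MF-PTCD1 and GCNT4 (distances 0.33 to 0.41) for PER1, TTC9C, HEATR6 and LINS1 (distances 0.29 to 0.33) for CRY2 and TRMT44, PRR14L and PLCXD2 (distances 0.60 to 0.65) for PER2. NR1D1 was closest to KRTAP2-3 and to ENSG00000262862, whose rows were identical, and to SPSB1 (distances 0.33 to 0.35). No clock gene was among the 3 nearest neighbors of another.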

How the data were processed

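Per the study's methods, cells were counted, ERCC spike-in RNA was added in proportion to cell number, and poly(A) RNA was sequenced with strand-specific libraries. The submitters' processing notes name kallisto 0.46.1, GRCh38 and DESeq2. The authors summed transcripts to genes with tximport and divided them by DESeq2 size factors estimated from the ERCC spikes alone. The deposited values are therefore a normalized signal per gene, not read counts. The table has 22471 rows, 92 of them ERCC spikes. Of the 22379 gene IDs, 19584 matched a GENCODE symbol and 2795 did not. Pseudoalignment shares reads among near-identical copies, so values of such genes are uncertain. Only 12.7 to 24.7% of low values were whole multiples of the worth of 1 read (tolerance 0.01), so reads could not be recovered and count models were left out. The approximate depth, 8.60 to 11.96 megareads, comes from that worth and covers counting error only.

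Values were analysed as log2(value + 1). The 13811 genes that averaged 10 or more in untreated libraries were tested. A limma model of 6 group means over the 12 libraries (eBayes with trend, two-sided) gave 8 contrasts, with Benjamini-Hochberg adjustment over all tested genes and a threshold of 0.05. The limma steps were run on simulated data with normally distributed noise. Those data held no error in library scale, so the check does not cover such errors. Alternatives were 3 other scales, 2 pseudocounts, 2 filters, no trend, a fit of the compared groups only, a replicate block and leaving out each library. The labels do not say that replicates were separate cultures, so p-values measure the spread between these samples, which may be technical. The clock genes and the lists were chosen with earlier results of these data known. All 10 clock genes are named. From the list of 31 further clock genes, the lowest and highest log2 fold change of each role in NONT and any gene called in a knockout or difference contrast are named, except that 1 gene under this rule is not reported here. The 3 nearest genes by distance over 12 libraries are named for each tested clock gene. Python 3.11.15, NumPy 2.4.6, pandas 2.3.3, matplotlib 3.10.9, R 4.3.3 and limma 3.58.1 were used.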

Additional observations from a re-analysis of the deposited data

Results flagged for a closer look

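A pair of genes from the list of further clock genes responded differently in a knockout and in NONT by a test of that difference itself. Under triptolide, NUP93-KO cells lost less CSNK1E mRNA than NONT cells, by a log2 difference of 1.32. For BHLHE40 the log2 difference between EXOSC5-KO and NONT was 2.10, also a smaller loss. Neither call was stable: that of CSNK1E was lost under 17 of 22 alternatives (values of 0.55 to 1.51, limma adjusted p up to 0.829) and that of BHLHE40 under 14 of 22 (1.58 to 2.50, limma adjusted p up to 0.305). No group had enough samples for a test of single outlying libraries, since each held 2.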

How the results depend on the processing

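With libraries rescaled by median of ratios, 5 of 9 clock genes were called lower after triptolide in NONT and 5 in NUP93-KO, and the log2 fold changes in NONT changed sign for CLOCK (0.20), HDAC3 (1.03) and NPAS2 (1.24). HDAC3 was 0.72 with the same total per library. The cause was not tested beyond the rescaling itself. The difference between repressor and activator arm became −1.08 in NONT and −0.74 in EXOSC5-KO with a pseudocount of 5. It became −0.86, −0.85 and −0.59 (NONT, NUP93-KO and EXOSC5-KO) with no filter on low values, which brings in CIART, and −1.30 in NONT with an untreated mean of at least 50, which drops PER2. Leaving out 1 library at a time gave −1.57 to −1.30 in NONT. The number of clock genes with a different response from NONT was 1 in NUP93-KO at an untreated mean of at least 50. With 1 library left out it was 0 to 1 in NUP93-KO and 0 to 1 in EXOSC5-KO. The gene was NR1D1 and the library the first untreated NONT replicate. The replicate numbers did not pair the samples (correlations of deviations −0.05 to 0.04 over 15 pairs), and with the replicate block 9 of 9 clock genes were again called after triptolide in each genotype, whereas the difference calls of CSNK1E and BHLHE40 were lost (limma adjusted p = 0.0555 and 0.0617). Those were also lost under each of the 3 other scales, with no filter and without trend, among 17 and 14 of 22 alternatives. With about 5 to 10 reads for NR1D1 in treated NONT libraries and 0 to 12 for PER2 in treated libraries, depth limits those values. The same holds for NFIL3 in treated NONT libraries, at 0.602 and 1.47.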

Other observations

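Of the list of further clock genes, HLF and USP2 were among those that did not reach the level for testing. HLF was at most 9.47 in any library and USP2 at most 12.9. BHLHE41 stood at 556 and 331 in untreated NUP93-KO against 157 and 112 in untreated NONT, a log2 difference of 1.69 ± 0.41 (SE) that did not pass the threshold (limma adjusted p = 0.299).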
